A study of Homo sapiens with 12 samples.

Results

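The transcripts described here are those of 10 circadian clock genes, PER1, PER2, PER3, CRY1, CRY2, BMAL1, CLOCK, NR1D1, NR1D2 and DBP, chosen by name out of the 60671 genes of the count table. They were measured by poly(A) RNA-seq in BJ-5ta cells, a line of human fibroblasts immortalized with hTERT. Cells were either wild type (WT) or a CRISPR/Cas9 knockout of LEO1 (ΔLEO1), and either grew in 10% serum or were kept for 10 days in 0.1% serum to make them quiescent. Each of the 4 groups held 3 libraries, numbered 1 to 3 (WT, 10% serum), 4 to 6 (ΔLEO1, 10%), 7 to 9 (WT, 0.1%) and 10 to 12 (ΔLEO1, 0.1%). The ΔLEO1 cells came from 1 clone, so the loss of LEO1 and other properties of that clone cannot be told apart. Nothing in the sources used here says whether the libraries of a group were separate cultures, so p-values measure the spread between these libraries, which may be technical.

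The circadian clock is a transcription loop that runs in most cells of the body, fibroblasts included. CLOCK and BMAL1 form a heterodimer that binds E-box elements and switches on the PER and CRY genes, whose proteins return to the nucleus and repress that dimer. In a second loop the same dimer drives NR1D1 and NR1D2 (REV-ERBα and REV-ERBβ), which repress BMAL1 through ROR response elements, and DBP carries the rhythm to output genes through D-boxes. Serum and glucocorticoids are known to reset the clock of cultured fibroblasts. The level of these transcripts therefore depends on the hour of harvest and on the time since the last change of medium. Neither is stated in the sources used here, and with 1 time point per group a shift of phase and a change of mean level cannot be told apart.

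Letter matches to the elements of these loops near the start sites of the members are shown first. Binding at these matches was not tested. RefSeq promoter windows of 300 bases (from 250 bases before to 50 after a start site, build GRCh38.p14) were found for 10 of the 10 members, 15 windows in all. They were searched on both strands for the E-box CACGTG, for D-boxes spelled TTATGTAA, TTACATAA, TTATATAA or TTACGTAA, for the ROR element spelled AA, any base, then TAGGTCA or TGGGTCA, and for the cAMP element TGACGTCA. No letters were shared between matches of different elements in the windows shown. The share of all 35116 RefSeq windows with a match was 7.26% for the E-box, 1.43% for the D-box, 0.379% for the ROR element and 1.85% for the cAMP element. Below, matches are in capitals, sequences run 5′ to 3′ on the strand of the gene, and positions count from the start site.
Upstream of NR1D2 and PER3, the members with the most matches, and of PER1:
NR1D2 (chr3:23945871-23946120, plus strand): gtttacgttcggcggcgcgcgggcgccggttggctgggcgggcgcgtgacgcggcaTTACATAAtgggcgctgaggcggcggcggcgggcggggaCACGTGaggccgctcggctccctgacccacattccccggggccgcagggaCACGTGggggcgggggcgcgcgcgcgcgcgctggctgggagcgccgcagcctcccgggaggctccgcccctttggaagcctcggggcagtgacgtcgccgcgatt
PER3 (chr1:7784041-7784290, plus strand): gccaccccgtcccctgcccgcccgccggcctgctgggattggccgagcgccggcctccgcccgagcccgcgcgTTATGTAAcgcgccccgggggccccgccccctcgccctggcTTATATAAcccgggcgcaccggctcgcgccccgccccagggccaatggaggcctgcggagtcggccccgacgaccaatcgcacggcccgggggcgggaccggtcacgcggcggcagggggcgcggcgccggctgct
PER1 (chr17:8152436-8152654, minus strand): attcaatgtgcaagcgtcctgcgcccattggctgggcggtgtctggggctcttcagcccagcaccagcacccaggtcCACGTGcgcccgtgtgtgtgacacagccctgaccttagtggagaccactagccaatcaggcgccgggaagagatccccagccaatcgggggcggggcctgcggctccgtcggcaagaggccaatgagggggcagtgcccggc
Around the single matches of PER2, BMAL1 and CLOCK:
PER2 (chr2:238288596-238288623, minus strand): ccgctgcggcTTACGTAAccgccgccgg
BMAL1 (chr11:13277807-13277836, plus strand): ggaaggcagaAAGTAGGTCAgggacggagg
CLOCK (chr4:55546130-55546159, minus strand): ctaggccttgTGACCCACTTtattcctgtc

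The NR1D2 window shown held 2 E-boxes, at -155 and -105, and a D-box at -194. That of PER3 held 2 D-boxes, at -177 and -136, and no E-box. The PER1 window had 1 E-box, at -173. A D-box lay at -3 in PER2, and ROR elements lay at 28 in BMAL1 and, on the opposite strand, at -217 in CLOCK. The windows of CRY1, CRY2, DBP and NR1D1 held none of these letters, which says nothing about sites elsewhere in those genes. RefSeq gives NR1D2, PER3, BMAL1 and CLOCK 2 windows each, and the other window of each held no match. The start sites of the windows shown for NR1D2, PER1, PER2, BMAL1 and CLOCK lie inside the genes as GENCODE places them.

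The libraries held 26240632 to 45315560 gene counts, and ERCC spike-in transcripts made up 0.625% to 3.24% of the counts. The comparisons used a pair of scales. On the ERCC scale, gene counts were set against the spike-in counts of the same library, and the median gene was then 0.97 lower in WT cells and 1.05 lower in ΔLEO1 cells in 0.1% serum than in 10% serum (log2). On the gene scale, in which a change is relative to the other genes, those medians were 0.00 and 0.01. In bulk RNA, fewer cells, less RNA per cell and unequal amounts of RNA or spike-in per library cannot be told apart. LEO1 itself was at 23.3, 23.9 and 23.3 CPM (counts per 1e6 gene counts) in WT cells in 10% serum and at 29.7, 30.4 and 20.4 CPM in 0.1% serum, against 0.661 to 1.44 CPM in the 6 ΔLEO1 libraries. The summed CPM of 10 fibroblast markers was 72771 to 106516, while 5 epithelial markers together stayed at or below 1.75 CPM. Markers of 2 other cell types moved with the genotype. The sum of 5 leukocyte markers was 0.306 to 0.776 CPM in WT and 1.55 to 7.16 CPM in ΔLEO1 libraries, mostly PTPRC (0.204 to 0.627 against 1.37 to 7.10 CPM), and that of 4 endothelial markers was 2.01 to 5.52 against 0.400 to 0.644 CPM, mostly TEK in WT cells (1.61 to 4.78 against at most 0.110 CPM). PTPRC was called higher and TEK lower in ΔLEO1 cells at both serum levels on both scales, and their part in the genotype comparisons below was not tested. The highest-numbered library of each group stood apart from the other 2: over all genes the median absolute log2 difference was 0.067 to 0.12 between the 2 lower-numbered libraries and 0.17 to 0.28 between either and the highest-numbered one. Calls below are therefore also given without libraries 3, 6, 9 and 12, an alternative chosen after seeing the data. It keeps the 2 most alike libraries of each group, so its p-values measure a spread that this choice made smaller. What set the left-out libraries apart was not tested.

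All 10 members passed the filter on low counts, with 113 to 4091 counts in a library. Per kilobase of exon in WT cells in 10% serum, NR1D2 had the highest level of the 10, at 9.40 ± 0.428 CPM per kb (SD, n = 3). It was followed by CLOCK at 5.38 ± 0.559, NR1D1 at 4.39 ± 0.541, PER3 at 3.76 ± 0.495 and CRY1 at 3.73 ± 0.241 CPM per kb. CRY2 at 3.12 ± 0.0588 and PER2 at 2.53 ± 0.0782 came next, and PER1 at 1.64 ± 0.50, BMAL1 at 1.59 ± 0.185 and DBP at 1.19 ± 0.320 CPM per kb were lowest. These levels used the length of all annotated exons merged, which for DBP was 6544 of the 7409 bases of the gene. A shorter transcript would have a higher level per kb, so the order rests on this length. The means of PER3 and CRY1, and those of PER1 and BMAL1, differed by less than the SD of either gene. In ΔLEO1 cells in 0.1% serum, where genotype and serum both differ, the level of NR1D2 was again the highest, at 14.4 ± 4.88 CPM per kb. That of PER2, at 6.71 ± 0.440 CPM per kb, had moved from the seventh place to the second, less than 1 SD above PER3 at 6.42 ± 3.43. PER2 was at 5.02 ± 0.339 CPM per kb in WT cells in 0.1% serum and at 2.77 ± 0.399 in ΔLEO1 cells in 10% serum.

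**Figure D1:**
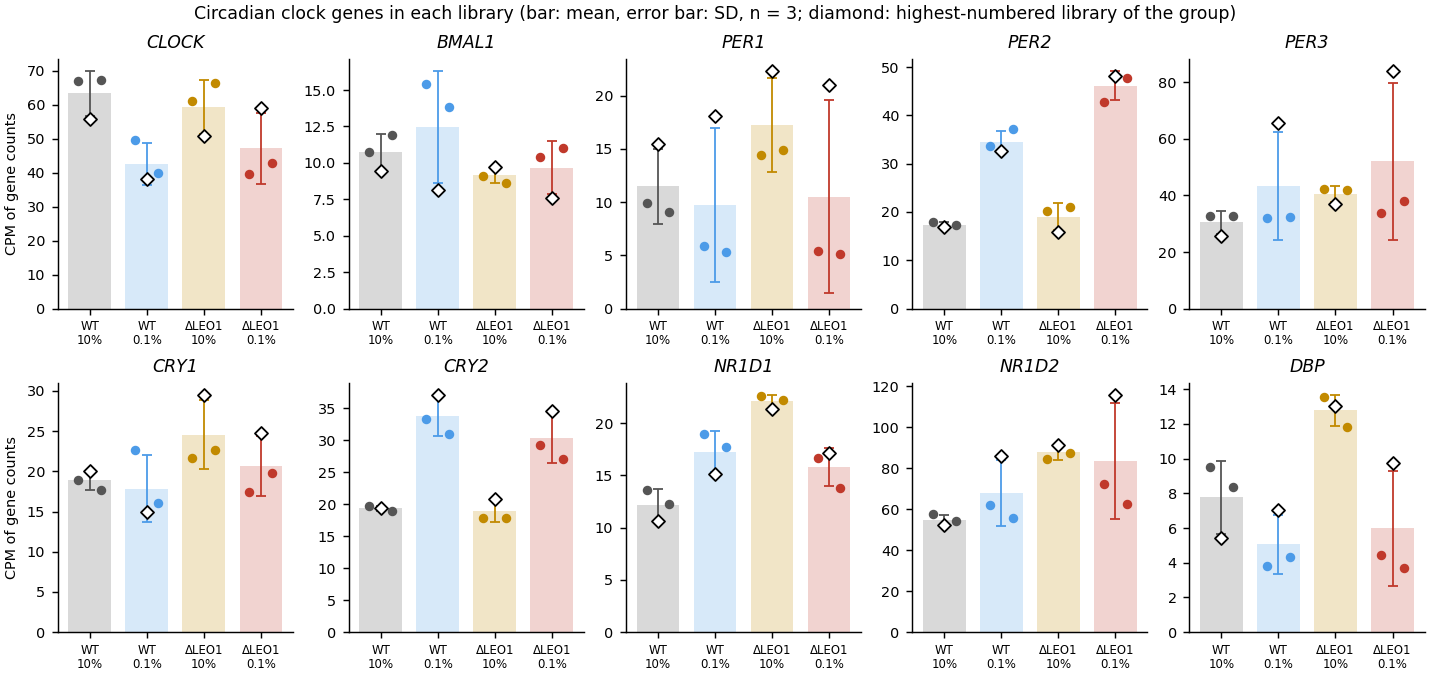
Level of each of the 10 clock genes in each library, in CPM of gene counts, by genotype and serum. Bars are group means, error bars SD (n = 3), and diamonds the highest-numbered library of a group. PER2 and CRY2 stand higher in 0.1% serum in both genotypes, and in 0.1% serum the diamonds of PER1, PER3 and DBP lie well above the other 2 libraries.

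The first question was how entry into quiescence changed the clock genes in WT cells. PER2 and CRY2, both repressors of the loop, rose relative to the other genes, and CLOCK fell. Against the spike-ins CLOCK, PER1 and DBP fell, and PER2 and CRY2 did not pass the test. These changes are described gene by gene, the activators first.

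CLOCK, the histone acetyltransferase subunit of the activating dimer, was at 66.8, 67.4 and 55.7 CPM in WT cells in 10% serum and at 49.7, 39.9 and 38.0 CPM in 0.1% serum. The 2 groups did not overlap. Overlap is given here and below as a description, since the share of all genes without overlap was not counted. The log2 fold change was -0.66 ± 0.15 (SE) on the gene scale (adjusted p = 0.00676) and -1.65 ± 0.49 on the ERCC scale (adjusted p = 0.00821). BMAL1, its partner, was at 10.7, 11.9 and 9.46 CPM in 10% serum and at 15.4, 13.8 and 8.15 CPM in 0.1% serum. The groups overlapped because library 9 lay below every library in 10% serum, and BMAL1 did not pass the test on either scale (0.13 ± 0.22 on the gene scale, adjusted p = 0.681). BMAL1 rose by 0.28 on the gene scale without the highest-numbered libraries (adjusted p = 0.0272).

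PER2, a repressor that also carries signals into the loop, was at 17.9, 17.4 and 16.9 CPM in 10% serum and at 33.7, 37.2 and 32.7 CPM in 0.1% serum. All 3 libraries in 0.1% serum were higher than all 3 in 10% serum, and PER2 rose by 0.90 ± 0.10 on the log2 gene scale (adjusted p = 0.000102). Against the spike-ins the same gene differed by -0.06 ± 0.49 (adjusted p = 0.912). CRY2, a cryptochrome that represses CLOCK and BMAL1, was at 19.7, 19.0 and 19.4 CPM in 10% serum and at 33.3, 30.9 and 37.1 CPM in 0.1% serum. It too rose relative to the other genes, by 0.72 ± 0.11 (adjusted p = 0.000622), with a value of -0.28 ± 0.49 on the ERCC scale (adjusted p = 0.609). CRY1, the other cryptochrome, was at 18.9, 17.7 and 20.1 CPM in 10% serum and at 22.6, 16.1 and 14.9 CPM in 0.1% serum. These groups overlapped, and CRY1 passed the test on neither scale (-0.17 ± 0.18 on the gene scale and -1.13 ± 0.50 on the ERCC scale).

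PER1, the period gene that responds fastest to resetting signals, was at 9.90, 9.06 and 15.5 CPM in 10% serum and at 5.91, 5.30 and 18.1 CPM in 0.1% serum. Both groups had 1 high library, the highest-numbered one. PER1 fell on the ERCC scale by 1.36 ± 0.51 (adjusted p = 0.0359), and on the gene scale the value was -0.31 ± 0.56 (adjusted p = 0.703). Without the highest-numbered libraries it fell by 0.84 on the gene scale (adjusted p = 2.08e-05). Between libraries 9 and 3 alone the log2 ratio of its CPM was 0.23. PER3 was at 32.7, 32.8 and 25.8 CPM in 10% serum and at 32.1, 32.4 and 65.5 CPM in 0.1% serum. The fold change of 0.43 ± 0.33 on the gene scale (adjusted p = 0.339) came with a near match of the lower-numbered libraries and a single high library, 9, and it was -0.11 without libraries 3, 6, 9 and 12 (adjusted p = 0.201).

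NR1D1, the repressor of BMAL1 in the second loop, was at 13.6, 12.3 and 10.6 CPM in 10% serum and at 19.0, 17.8 and 15.1 CPM in 0.1% serum, with no overlap. It rose by 0.42 ± 0.12 relative to the other genes (adjusted p = 0.0236), with -0.57 ± 0.50 on the ERCC scale (adjusted p = 0.304). The gene-scale call was lost on leaving out library 2, 3, 7 or 8 in turn, with an adjusted p of up to 0.0886. NR1D2 was at 57.4, 54.3 and 52.5 CPM in 10% serum and at 62.1, 55.5 and 85.9 CPM in 0.1% serum, overlapping, and passed on neither scale. DBP, which binds the D-boxes of output genes, was at 9.49, 8.37 and 5.43 CPM in 10% serum and at 3.83, 4.31 and 7.02 CPM in 0.1% serum. The groups overlapped through libraries 3 and 9. DBP fell by 1.80 ± 0.53 on the ERCC scale (adjusted p = 0.00755). Its value on the gene scale was -0.70 ± 0.34 (adjusted p = 0.135), and without the highest-numbered libraries DBP fell by 1.22 (adjusted p = 4.05e-06). Between libraries 9 and 3 alone the log2 ratio of its CPM was 0.37.

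In all, 3 of the 10 members were called lower on the ERCC scale in WT cells, against 27.0% of the 13236 genes tested, and none higher, against 0.831%. By DESeq2 and by the edgeR likelihood ratio test none was higher either, and at an unadjusted p under 0.05 there were 4 members, none of them higher. Relative to the other genes 1 member was lower, against 16.1% of genes, and 3 were higher, against 15.5%. The median of the 10 members was -0.81 on the ERCC scale, beside -0.97 over all genes. Without libraries 3, 6, 9 and 12, 6 members were lower on the ERCC scale, against 63.1% of genes. Relative to the other genes 3 were then lower, against 29.9%, and 4 were higher, against 26.9%. The ERCC calls also depended on single libraries: 0 members were called lower without library 1 or library 7, against 6.81% and 5.63% of all genes, and 1 without library 2, against 8.85%. The members followed the calls over all genes here. The ERCC share of libraries 1 to 3 was 0.785%, 0.925% and 1.45%, and that of libraries 7 to 9 was 2.06%, 1.67% and 2.63%. The part of this spread in the lost calls was not tested.

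**Figure D2:**
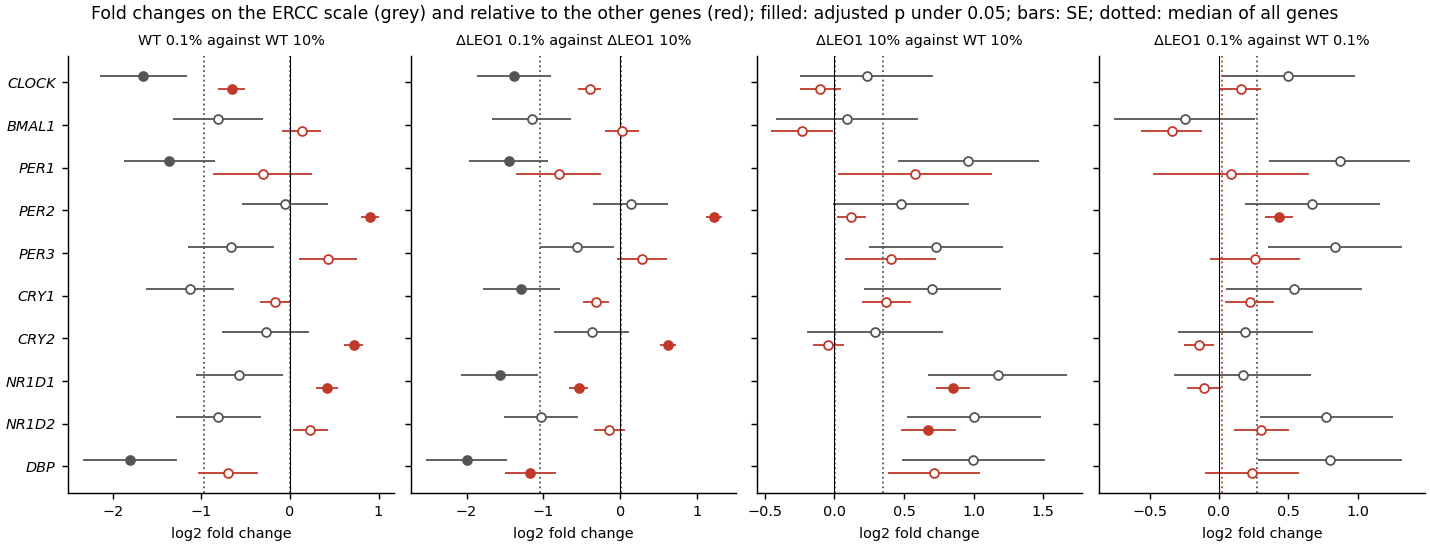
Log2 fold changes of the 10 clock genes in the 4 comparisons on the ERCC scale (grey) and relative to the other genes (red). Bars are SE, filled points passed an adjusted p of 0.05 and dotted lines give the median of all genes. In 0.1% serum the members lie around a grey line near -1, and PER2 and CRY2 are to the right of it.

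The same comparison within ΔLEO1 cells asked how the knockout clone differed between the serum levels. PER2 and CRY2 again rose relative to the other genes, NR1D1 and DBP fell on both scales, and CLOCK, PER1 and CRY1 fell on the ERCC scale. On the gene scale neither CLOCK (-0.40, adjusted p = 0.0659) nor PER1 (-0.80, adjusted p = 0.307) passed with all 12 libraries. Both were called without the highest-numbered libraries (CLOCK -0.65, adjusted p = 1.9e-05, and PER1 -1.5, adjusted p = 3.04e-08). That subset was chosen after seeing the data and keeps the most alike libraries, so these p-values measure a reduced spread. On leaving out single libraries CLOCK was called in 2 of the 12 fits and PER1 in 1. PER2 was at 20.2, 21.1 and 15.9 CPM in 10% serum and at 42.7, 47.7 and 48.1 CPM in 0.1% serum, far apart, a rise of 1.22 ± 0.10 on the gene scale (adjusted p = 2.31e-05) and 0.14 ± 0.49 on the ERCC scale (adjusted p = 0.802). CRY2 was at 17.9, 17.9 and 20.8 CPM and at 29.3, 27.1 and 34.6 CPM, a rise of 0.62 ± 0.11 on the gene scale (adjusted p = 0.00188) and -0.37 ± 0.49 on the ERCC scale (adjusted p = 0.484). The gene-scale calls of both genes held on leaving out any 1 of the 12 libraries, as they did in WT cells.

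On the gene scale NR1D1 moved the other way from WT cells, while on the ERCC scale its value was negative in WT cells too (-0.57 ± 0.50). In ΔLEO1 cells it was at 22.7, 22.2 and 21.4 CPM in 10% serum and at 16.6, 13.8 and 17.1 CPM in 0.1% serum. The groups did not overlap, and NR1D1 fell by 0.54 ± 0.12 on the gene scale (adjusted p = 0.00779) and by 1.57 ± 0.50 on the ERCC scale (adjusted p = 0.0179). NR1D2 was at 84.3, 87.5 and 91.5 CPM in 10% serum and at 72.2, 62.6 and 116 CPM in 0.1% serum. Library 12 was above every library in 10% serum and the other 2 were below, and NR1D2 did not pass on either scale (-0.14 ± 0.20 on the gene scale, adjusted p = 0.627). NR1D2 fell by 0.37 on the gene scale without the highest-numbered libraries (adjusted p = 0.00175). Between libraries 12 and 6 alone the log2 ratio of its CPM was 0.34. DBP was at 13.6, 11.8 and 13.0 CPM in 10% serum and at 4.46, 3.72 and 9.75 CPM in 0.1% serum, without overlap. It had the largest fall of the 10 members, 1.17 ± 0.33 on the gene scale (adjusted p = 0.0225) and 2.0 ± 0.53 on the ERCC scale (adjusted p = 0.00382). The gene-scale call was lost without library 4, 6, 10 or 11, with an adjusted p of up to 0.084.

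CLOCK was at 61.0, 66.4 and 50.7 CPM in 10% serum and at 39.4, 42.9 and 59.0 CPM in 0.1% serum. Library 12 was the high one of the second group and made the groups overlap. CLOCK fell by 1.38 ± 0.49 on the ERCC scale (adjusted p = 0.027), and on the gene scale the value was -0.40 ± 0.15 (adjusted p = 0.0659). PER1 was at 14.4, 14.9 and 22.3 CPM and at 5.38, 5.16 and 21.0 CPM, again with a high library 12, and it fell by 1.45 ± 0.51 on the ERCC scale (adjusted p = 0.0272), with -0.80 ± 0.56 on the gene scale. CRY1 was at 21.6, 22.6 and 29.6 CPM and at 17.5, 19.8 and 24.8 CPM, overlapping, and fell by 1.29 ± 0.50 on the ERCC scale (adjusted p = 0.0374), with -0.32 ± 0.17 on the gene scale. BMAL1 was at 9.13, 8.65 and 9.75 CPM and at 10.4, 11 and 7.62 CPM. It did not pass on either scale, with 0.02 ± 0.22 on the gene scale (adjusted p = 0.955). PER3 was at 42.5, 42.0 and 37.1 CPM and at 33.9, 38.1 and 84.0 CPM, an overlap made by library 12. Its value of 0.28 ± 0.32 on the gene scale turned to -0.25 without the highest-numbered libraries, where it passed the test (adjusted p = 0.00542).

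Of the 10 members, 5 were thus called lower on the ERCC scale in ΔLEO1 cells, against 36.4% of all genes tested, and 0 higher, against 0.793%. No member was higher by DESeq2 or the edgeR likelihood ratio test, and the 7 members with an unadjusted p under 0.05 were all lower. Relative to the other genes 2 were lower, against 12.1%, and 2 higher, against 15.5%. Without the highest-numbered libraries 9 members were lower on the ERCC scale, against 91.3% of all genes, while on the gene scale 6 were lower (CLOCK, PER1, PER3, NR1D1, NR1D2 and DBP), against 27.6%, and 2 were higher, against 28.1%. Here too the ERCC calls rested on single libraries, with 0 members lower without library 4 or library 10, against 4.51% and 3.06% of all genes. There was 1 without library 11, against 6.19%, and 2 without library 5, against 9.98%. Without library 6 there were 3, against 32.4%, and without library 12 there were 9, against 87.4%. The ERCC share was 0.625%, 0.838% and 0.932% in libraries 4 to 6 and 1.88%, 3.24% and 1.09% in libraries 10 to 12. The part of library 11 and library 12, the extremes of that range, was not tested.

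The second question was how the genotypes differed at the same serum level. In 10% serum both REV-ERB genes were higher in ΔLEO1 cells relative to the other genes. NR1D1 was at 21.4 to 22.7 CPM in the 3 ΔLEO1 libraries and at 10.6 to 13.6 CPM in the 3 WT libraries, with no overlap, and was higher by 0.85 ± 0.12 (adjusted p = 0.000223). The gene-scale call of NR1D1 held on leaving out any 1 of the 12 libraries. NR1D2 was at 84.3 to 91.5 CPM against 52.5 to 57.4 CPM, again without overlap, and was higher by 0.67 ± 0.20 (adjusted p = 0.018). That call was lost without library 2 (adjusted p = 0.053). DBP was at 11.8 to 13.6 CPM against 5.43 to 9.49 CPM, also with no overlap, and did not pass, with 0.71 ± 0.33 (adjusted p = 0.105). PER3 at 37.1 to 42.5 CPM against 25.8 to 32.8 CPM, and CRY1 at 21.6 to 29.6 CPM against 17.7 to 20.1 CPM, did not overlap and did not pass either, with 0.40 ± 0.33 and 0.37 ± 0.17. Lack of overlap is a description here, not a test.

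BMAL1, the target that the REV-ERB proteins repress, gave -0.23 ± 0.22 on the gene scale in 10% serum (adjusted p = 0.435), and the groups overlapped. None of the 10 members was called on the ERCC scale in this comparison, against 8.01% of genes in either direction. At an unadjusted p under 0.05 there were 2 members, NR1D1 (1.17 ± 0.50, adjusted p = 0.167) and NR1D2 (1.00 ± 0.48, adjusted p = 0.266). None was called by DESeq2 or by the edgeR likelihood ratio test, and NR1D1 was called on leaving out library 11 or library 12. On the gene scale 0 members were lower, against 21.4% of genes, and 2 were higher, against 17.9%. At an unadjusted p under 0.05 the gene scale gave the same 2 members. Without the highest-numbered libraries BMAL1 was lower (-0.37, adjusted p = 0.00639), the 1 member lower against 31.9% of genes. A total of 6 members were then higher, against 30.3%: PER1, PER2, PER3, NR1D1, NR1D2 and DBP.

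In 0.1% serum PER2 was the member that differed between the genotypes on the gene scale. It was at 42.7 to 48.1 CPM in ΔLEO1 cells and at 32.7 to 37.2 CPM in WT cells, without overlap, and was higher by 0.44 ± 0.10 (adjusted p = 0.00622), a call that held on leaving out any 1 library. NR1D1 was at 13.8 to 17.1 CPM against 15.1 to 19.0 CPM, overlapping, with -0.11 ± 0.12 (adjusted p = 0.544). NR1D2 was at 62.6 to 116 CPM against 55.5 to 85.9 CPM, with 0.31 ± 0.20 (adjusted p = 0.265). The other members also overlapped between the genotypes in 0.1% serum.

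In 0.1% serum 0 members were called on the ERCC scale, against 6.91% of genes, 0 had an unadjusted p under 0.05, and DESeq2 and the edgeR likelihood ratio test called none. Without library 11, which had the highest ERCC share, PER1 and PER3 were called higher on that scale. Relative to the other genes 0 were lower, against 17.3% of genes, and 1 was higher, against 15.1%. PER2 was also the 1 member with an unadjusted p under 0.05 there. Without the highest-numbered libraries 1 member, BMAL1, was lower (-0.40, adjusted p = 0.0038), against 29.0%, and 3, PER2, PER3 and NR1D2, were higher, against 30.5%. PER3 was then at 0.21 and NR1D2 at 0.25. BMAL1 was also called lower on leaving out library 9 alone.

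Whether the response to low serum itself differed between the genotypes was tested as an interaction. NR1D1 passed on the gene scale, with a response that was lower in ΔLEO1 cells (-0.96 ± 0.17, adjusted p = 0.0185), from a rise of 0.42 in WT cells to a fall of 0.54. It was the 1 member called, against 2.0% of genes in either direction. The difference on the ERCC scale was almost the same size, -1.0 ± 0.70, and did not pass (adjusted p = 1). No member was called there, against 0.174% of genes, none had an unadjusted p under 0.05, and none was called by DESeq2 or the edgeR likelihood ratio test. The gene-scale call was lost on leaving out library 2, 4, 5, 7 or 8 in turn, with an adjusted p of up to 0.0589 and a difference between -1.04 and -0.87. PER2, with 0.31 ± 0.14, had an unadjusted p under 0.05 and an adjusted p of 0.357. Without the highest-numbered libraries NR1D1 (-1.0, adjusted p = 0.000222), PER1 (-0.66, adjusted p = 0.0085) and NR1D2 (-0.36, adjusted p = 0.0422) had a lower response in ΔLEO1 cells, against 8.45% of genes.

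The spread within groups was itself uneven among the members. In 0.1% serum the highest-numbered library exceeded the mean of the other 2 by 3.23 times for PER1, 2.03 times for PER3 and 1.72 times for DBP in WT cells. In ΔLEO1 cells the same ratios were 3.98 for PER1, 2.33 for PER3 and 2.38 for DBP. BMAL1 stood the other way in those libraries, at 0.557 of the mean of the other 2 in WT cells and 0.712 in ΔLEO1 cells. NPAS2, a paralog of CLOCK that also pairs with BMAL1, was at 0.419 and 0.365.

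Most of these ratios, of PER1, PER3, DBP, BMAL1 and NPAS2, lay outside the range of most genes. CLOCK, CRY1, CRY2, NR1D1 and NR1D2 lay within that range in both genotypes in 0.1% serum. In WT cells in 0.1% serum the middle 90% of genes had a log2 ratio between -0.64 and 0.79, which PER1 at 1.69 and PER3 at 1.02 exceeded, and BMAL1 at -0.84 and NPAS2 at -1.26 lay below it, while DBP at 0.79 lay within it. In ΔLEO1 cells in 0.1% serum that range was -0.66 to 0.89, and PER1 at 1.99, PER3 at 1.22, DBP at 1.25 and TEF at 1.07 exceeded it, with NPAS2 at -1.46 below and BMAL1 at -0.49 within it. TEF, a relative of DBP, lay within the range in WT cells and was named after its values were seen. PER2 was at -0.11 in WT and 0.09 in ΔLEO1 cells in 0.1% serum. In 10% serum the ratios of PER1 were 1.64 in WT cells and 1.52 in ΔLEO1 cells, while PER3 was at 0.788 and 0.877. The cause of the difference between libraries was not tested.

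**Figure D3:**
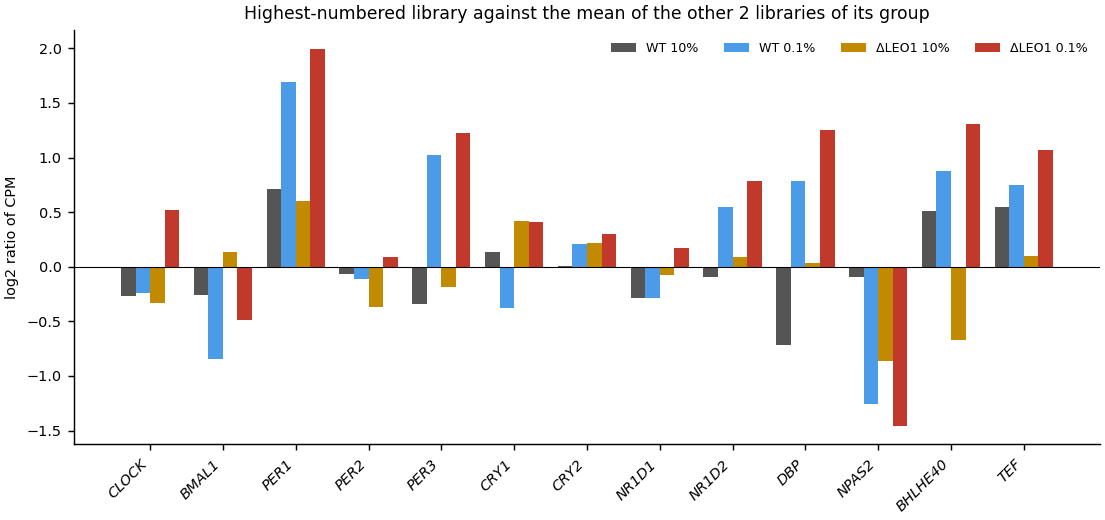
Log2 ratio of the CPM in the highest-numbered library to the mean CPM of the other 2 libraries of its group, for the 10 members and for NPAS2, BHLHE40 and TEF. In 0.1% serum PER1, PER3, DBP, BHLHE40 and TEF have ratios above 0 and BMAL1 and NPAS2 below 0 in both genotypes.

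The balance of the 2 arms of the clock was summarized per library as the log2 CPM of BMAL1 less the mean log2 CPM of NR1D1, DBP and PER3, as a description without a test. In WT cells in 10% serum it was -0.59, -0.33 and -0.27, and in ΔLEO1 cells it was -1.36, -1.36 and -1.15, below all 3 of the WT libraries. In 0.1% serum it was 0.22, 0.03 and -1.22 in WT cells and -0.39, -0.19 and -1.66 in ΔLEO1 cells. In each genotype the 2 lower-numbered libraries in 0.1% serum stood above the 3 libraries in 10% serum. Library 9 and library 12 lay far below the other 2 of their groups.

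**Figure D4:**
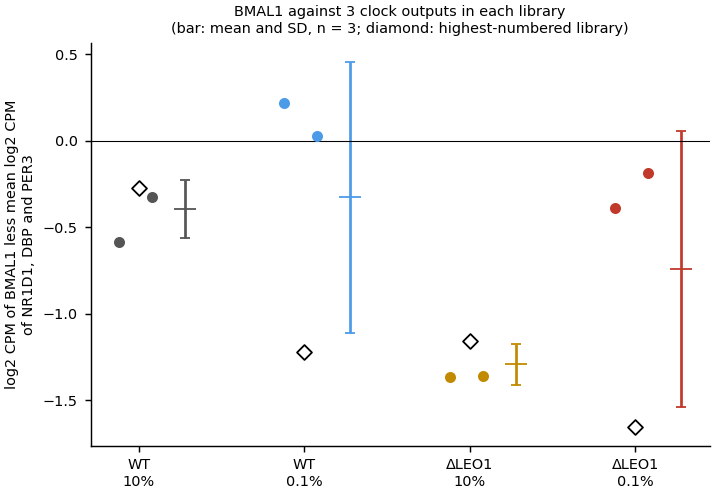
Log2 CPM of BMAL1 less the mean log2 CPM of NR1D1, DBP and PER3 in each library, with the mean and SD of each group (n = 3). Diamonds mark the highest-numbered libraries, which reach -1.22 in WT cells and -1.66 in ΔLEO1 cells in 0.1% serum.

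Other genes of the clock loops were counted in lists by role, members included, and are set beside the share of all genes called. Over all genes the median on the gene scale was 0.00 in WT and 0.01 in ΔLEO1 cells in 0.1% serum, and 0.00 and 0.02 between the genotypes in 10% and 0.1% serum. Among the 4 activators (CLOCK, BMAL1, BMAL2 and NPAS2), CLOCK and BMAL2 were lower and NPAS2 was higher in 0.1% serum in WT cells on the gene scale, against 16.1% of genes lower and 15.5% higher. In ΔLEO1 cells BMAL2 was lower and NPAS2 higher, against 12.1% and 15.5%. The median of the 4 was -0.26 in WT and -0.19 in ΔLEO1 cells. BMAL2, a paralog of BMAL1, was at 33.8 to 37.2 CPM in 10% serum and at 17.3 to 22.5 CPM in 0.1% serum in WT cells, and at 15.9 to 23.7 and 12.3 to 13.4 CPM in ΔLEO1 cells. It fell on both scales in both genotypes, by 0.88 and 0.71 on the gene scale. On that scale it was lower in ΔLEO1 than in WT cells at both serum levels (-0.85 and -0.68), and neither difference passed on the ERCC scale. NPAS2 was at 31.5 to 33.9 CPM in 10% serum and at 48.1 to 119 CPM in 0.1% serum in WT cells, and at 9.27 to 18 and 25.7 to 76.8 CPM in ΔLEO1 cells. It rose on the gene scale, by 1.40 ± 0.41 in WT cells (adjusted p = 0.0226) and 1.91 ± 0.42 in ΔLEO1 cells (adjusted p = 0.00642), with 0.51 and 0.52 on the ERCC scale, where it did not pass. In 10% serum it was lower in ΔLEO1 cells on the gene scale (-1.21), while -0.84 on the ERCC scale did not pass.

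The list of repressors held 9 genes (the PER and CRY genes, CIART, BHLHE40, BHLHE41 and TIMELESS). Of these, 1 was lower and 3 were higher in WT cells in 0.1% serum on the gene scale, against 16.1% and 15.5% of genes. In ΔLEO1 cells 0 were lower and 3 higher, against 12.1% and 15.5%. Their median was -0.17 in WT and 0.19 in ΔLEO1 cells. BHLHE40 (DEC1), an E-box repressor, was at 38.0 to 55.0 CPM in 10% serum and at 86.5 to 165 CPM in 0.1% serum in WT cells, and at 22.3 to 35.9 and 106 to 278 CPM in ΔLEO1 cells. It rose by 1.30 in WT cells and 2.35 in ΔLEO1 cells on the gene scale, with 0.31 (not called) and 1.5 (called) on the ERCC scale. BHLHE41 (DEC2), its paralog, fell by 1.00 in WT cells and was lower in ΔLEO1 than in WT cells in 10% serum on the gene scale (-1.67), at 2.93 to 3.29 against 9.06 to 10.9 CPM. The fall in WT cells on the ERCC scale was 1.97 and passed, while -1.29 between the genotypes did not. Set against the spike-ins 4 genes of this list were lower in WT cells (BHLHE41, CIART, PER1 and TIMELESS), against 27.0% of genes. In ΔLEO1 cells 3 were lower (CRY1, PER1 and TIMELESS) and 1 higher (BHLHE40), against 36.4% and 0.793%. Between the genotypes the gene scale gave 2 lower (BHLHE41 and CIART) and 0 higher in 10% serum, against 21.4% and 17.9%, and 1 lower (BHLHE41) and 1 higher (PER2) in 0.1% serum, against 17.3% and 15.1%.

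In the receptor loop 4 genes were tested, NR1D1, NR1D2, RORA and NFIL3. RORA, an activator of BMAL1 that competes with the REV-ERB proteins for their sites, was at 4.28 to 5.23 CPM in WT cells and at 1.24 to 2.23 CPM in ΔLEO1 cells in 10% serum. On the gene scale RORA was lower there in ΔLEO1 cells (-1.44 ± 0.21, adjusted p = 0.000207), with -1.18 on the ERCC scale, where it did not pass, and it rose by 1.44 in ΔLEO1 cells in 0.1% serum, to 4.33 to 6.26 CPM, with 0.52 on the ERCC scale, where it did not pass. NFIL3, a repressor at D-boxes, was lower in ΔLEO1 cells at both serum levels on the gene scale (-0.71 and -0.89). Neither of these NFIL3 differences passed on the ERCC scale. In that list 1 gene was higher in WT cells in 0.1% serum, NR1D1, and in ΔLEO1 cells 1 was lower, NR1D1, and 1 higher, RORA, against the same shares of all genes as above. With ERCC scaling 0 were called in WT cells, and 2 were lower in ΔLEO1 cells (NFIL3 and NR1D1), against 36.4% of genes, and 0 higher. The median of the 4 on the gene scale was 0.28 in WT and -0.19 in ΔLEO1 cells. Among the output factors DBP and TEF passed the filter and HLF did not, and TEF was called in no comparison on either scale, with 19.4 to 28.7 CPM in WT cells in 10% serum and 17.9 to 42.5 CPM in ΔLEO1 cells in 0.1% serum.

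**Figure D5:**
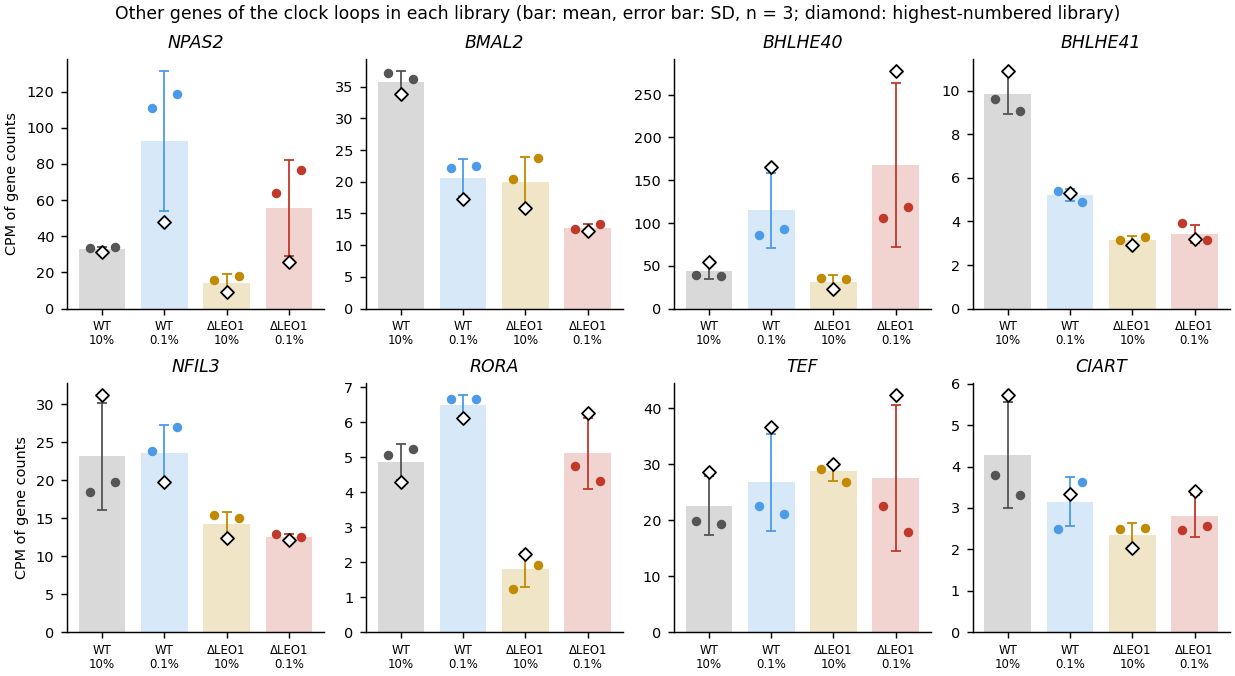
Level of 8 other genes of the clock loops in each library, in CPM of gene counts. Bars are group means, error bars SD (n = 3), and diamonds the highest-numbered library. NPAS2 and BHLHE40 stand higher in 0.1% serum, and BMAL2, BHLHE41 and RORA are lower in ΔLEO1 than in WT cells in 10% serum.

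Among 19 tested kinases, phosphatases and ubiquitin ligases that modify clock proteins, 3 were lower and 1 higher in WT cells in 0.1% serum on the gene scale, against 16.1% and 15.5% of genes, and 2 lower and 1 higher in ΔLEO1 cells, against 12.1% and 15.5%. Their median was -0.095 in WT and -0.10 in ΔLEO1 cells. GSK3B, a kinase that marks several clock proteins for turnover, fell by 0.71 in WT cells, and USP2, a deubiquitinase, rose by 1.29 in WT and 1.51 in ΔLEO1 cells from below 1 CPM. Between the genotypes 3 were lower and 5 higher in ΔLEO1 cells in 10% serum, against 21.4% and 17.9% of genes, with PRKAA2, a catalytic subunit of AMPK, lower (-1.60) and CSNK1E, the casein kinase that phosphorylates the PER proteins, higher (0.46). In 0.1% serum 1 was lower and 4 were higher, against 17.3% and 15.1%, again with PRKAA2 (-1.24) and CSNK1E (0.52). Of the 19, 7 were lower on the ERCC scale in WT cells, against 27.0% of genes, and 11 in ΔLEO1 cells, against 36.4%, none was higher, and none was called between the genotypes.

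Of 15 tested chromatin factors and coregulators, 1 was lower and 1 higher in WT cells in 0.1% serum on the gene scale (CUL4A, -0.24, and DDB1, 0.49), against 16.1% and 15.5% of genes. Their median was 0.08 in WT cells. DDB1 had a value below 0 on the ERCC scale, -0.45. Between the genotypes 1 was lower and 3 were higher in ΔLEO1 cells in 10% serum, against 21.4% and 17.9%, among them SIRT1, a deacetylase that binds CLOCK (0.45). In 0.1% serum 1 was lower, DDB1 (-0.66), and 2 were higher, SIRT1 (0.38) and NONO (0.25), against 17.3% and 15.1%. With ERCC scaling 2 fell in WT cells, against 27.0%, and 5 in ΔLEO1 cells, against 36.4%. Of 8 other E-box output genes, 4 were lower in WT cells in 0.1% serum on the gene scale, against 16.1%, and 2 in ΔLEO1 cells, against 12.1%, with GYS1, glycogen synthase, falling by 1.52 and 0.99 and PPARA, a nuclear receptor of lipid metabolism, by 0.98 and 0.79. Their median was -0.43 in WT and 0.00 in ΔLEO1 cells. With ERCC scaling 6 fell in WT cells, against 27.0%, and 3 in ΔLEO1 cells, against 36.4%. Between the genotypes the gene scale gave 1 lower and 1 higher in 10% serum (WEE1, -0.46, and POR, 0.32), against 21.4% and 17.9%, and 2 higher in 0.1% serum (GYS1, 0.38, and POR, 0.30), against 15.1%.

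Genes of the signals that reset fibroblast clocks were listed as well. Of 12 tested glucocorticoid-induced genes, 2 were lower and 3 higher in WT cells in 0.1% serum on the gene scale, against 16.1% and 15.5% of genes, and 1 lower and 3 higher in ΔLEO1 cells, against 12.1% and 15.5%. Their median was -0.15 in WT and 0.47 in ΔLEO1 cells. PDK4, a mitochondrial kinase, rose in WT cells from 0.0255 to 0.0766 CPM to 4.84 to 7.40 CPM. In ΔLEO1 cells it was at 0 to 0.0441 CPM in 10% serum and at 0.453 to 0.830 CPM in 0.1% serum. Except in WT cells in 0.1% serum, PDK4 thus lay below the 1 CPM of the filter, so the sizes of its changes are imprecise. DUSP1, a phosphatase of MAP kinases, fell by 1.00 in WT and 1.19 in ΔLEO1 cells. In 0.1% serum PDK4 was lower in ΔLEO1 cells (-3.30 ± 0.33, adjusted p = 2.45e-05), and 2 of the list were lower there and 1 higher, against 17.3% and 15.1%. In 10% serum 3 were lower in ΔLEO1 cells and 0 higher, against 21.4% and 17.9%. On the ERCC scale 5 were lower and 2 higher in WT cells, against 27.0% and 0.831%, and 4 lower and 2 higher in ΔLEO1 cells, against 36.4% and 0.793%. Between the genotypes 1 was lower on that scale at each serum level, against 8.01% and 6.91% of genes called in either direction.

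Of 14 tested immediate early genes of the serum and CREB responses, 0 were lower and 7 higher in WT cells in 0.1% serum on the gene scale, against 16.1% and 15.5% of genes, and 0 lower and 8 higher in ΔLEO1 cells, against 12.1% and 15.5%. Their median was 0.91 in WT and 1.44 in ΔLEO1 cells. FOS was at 178 to 488 CPM in 10% serum and at 847 to 928 CPM in 0.1% serum in WT cells, and at 16.4 to 28 and 146 to 197 CPM in ΔLEO1 cells. In 10% serum the fold change of FOS between ΔLEO1 and WT cells was -3.99 ± 0.34 (adjusted p = 4.56e-06). In 0.1% serum it was -2.41 ± 0.32 (adjusted p = 0.000164), and both differences also passed on the ERCC scale (-3.74 and -2.07). EGR2 rose by 5.73 in WT cells and 5.07 in ΔLEO1 cells, and by 4.65 and 4.06 on the ERCC scale. Between the genotypes 5 were lower and 1 higher in 10% serum on the gene scale, against 21.4% and 17.9%, and 6 lower and 2 higher in 0.1% serum, against 17.3% and 15.1%. On the ERCC scale 1 was lower and 2 higher in WT cells, against 27.0% and 0.831%, and 1 lower and 3 higher in ΔLEO1 cells, against 36.4% and 0.793%. Between the genotypes 3 and 2 were lower on that scale in 10% and 0.1% serum, against 8.01% and 6.91% called in either direction. PER1 and PER2 are known targets of these pathways, and their part in the levels of PER1 and PER2 was not tested.

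The genes whose log2 CPM followed each member most closely over the 12 libraries were found among 8793 genes with a mean of at least 10 CPM, as a description. They share the libraries and their depth. For PER2 they were ZBTB17 (r = 0.979), ELF4 (0.977) and SPRED2 (0.975), and for CRY2 C15orf39 (0.987), SSBP2 (0.977) and NUMA1 (0.972). PER1 was followed by ID1 (0.970), STAMBPL1 (0.936) and ARID3A (0.932), PER3 by TIPARP (0.959), MBD6 (0.948) and EHMT2 (0.943), and DBP by RIMOC1 (0.958), PIP4P2 (0.958) and MAP9 (0.944). For CLOCK they were GPR107 (0.953), RECQL (0.943) and DIAPH1 (0.941), for BMAL1 PLXND1 (0.957), TBC1D16 (0.947) and SEPTIN11 (0.925), and for CRY1 AP5M1 (0.923), AKAP13 (0.918) and DHX16 (0.917). NR1D1 was followed less closely, by ZNF766 (0.919), BMP4 (0.919) and ZNF587 (0.877), and NR1D2 by BTD (0.957), SMC3 (0.934) and DLX2 (0.932).

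On GRCh38 the GENCODE annotation places PER1 at chr17:8140472-8156506 (minus strand), PER2 at chr2:238244038-238290102 (minus strand), PER3 at chr1:7784320-7845177 (plus strand), CRY1 at chr12:106991364-107093829 (minus strand) and CRY2 at chr11:45847118-45883248 (plus strand). It places BMAL1 at chr11:13276652-13387266 (plus strand), CLOCK at chr4:55427903-55547138 (minus strand), NR1D1 at chr17:40092787-40100725 (minus strand), NR1D2 at chr3:23945260-23980618 (plus strand) and DBP at chr19:48630030-48637438 (minus strand). Reads were counted over the exons of each gene, so the values do not separate isoforms.

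Some members share exon bases with a gene on the opposite strand, and the strand setting of the counting is not given in the sources used here. The NR1D1 exons share 263 bases (9.49%) with THRA, the thyroid hormone receptor gene, and the DBP exons share 661 bases (10.1%) with SPHK2. THRA held 24762 counts over the 12 libraries against 7474 for NR1D1, and SPHK2 held 4639 against 3623 for DBP, so reads of these bases cannot be told apart if strand was not used. PER3 shares 868 bases with UTS2, which had 2 counts in all, and CLOCK shares 76 bases with TMEM165.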

How the data were processed

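RNA from 12 libraries was measured by poly(A) RNA-seq with ERCC spike-in transcripts. Per the methods, the authors aligned reads to the genome plus spike-in sequences and counted those falling in annotated exons. The submitters' processing notes name bcl2fastq 2.20.0.422, STAR 2.7.10a, featureCounts 1.5.1 and GRCh38. The deposited values are raw counts per gene and per ERCC transcript. The annotation release is not given in the sources used here. Gene symbols were found for 42020 of 60671 identifiers, and positions and exon lengths were taken from GENCODE on GRCh38.

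Genes over 1 CPM in at least 3 libraries (13236) were tested with the quasi-likelihood test of edgeR 4.0.16 in R 4.3.3, in 1 fit of the 12 libraries. Effective library sizes were ERCC totals with TMM factors (ERCC scale) or gene totals with TMM factors (gene scale). P-values were adjusted over all genes tested by Benjamini-Hochberg, with 0.05 as the threshold. SE is the log2 fold change over the square root of F. Alternatives were the likelihood ratio test, DESeq2 1.42.0, median-of-ratios factors, no filter, a term for the highest-numbered library, its 2 companions summed, and each library left out. The scripts were tested on simulated data. Intervals of ERCC shares (95%, Wilson) were no wider than 0.0120 percentage points and cover counting error only. The members and gene lists were chosen with earlier results of these data known. Named are the 10 members, LEO1, at most 4 called genes with the largest fold change per list and comparison, the 3 genes most like each member and genes that overlap one. Some results of the gene lists are not reported here.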

Additional observations from a re-analysis of the deposited data

Results flagged for a closer look

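The response to low serum differed between the genotypes for 4 genes of the lists by the interaction test on the gene scale. Values are from edgeR, in log2, as the response in ΔLEO1 less the response in WT cells. Over all genes tested 2.0% were called in either direction. NR1D1 was 1 of 4 tested genes of its role list, BHLHE41 1 of 9, DDB1 1 of 15 and SGK1 1 of 12. No gene of the other role lists was called. NR1D1 differed by -0.96 (adjusted p = 0.0185), from a rise of 0.42 in WT to a fall of 0.54 in ΔLEO1 cells. The call of NR1D1 held in 7 of the 12 fits that each left out 1 library. BHLHE41 differed by 1.08 (adjusted p = 0.0213), DDB1, a subunit of a ubiquitin ligase, by -0.72 (adjusted p = 0.0145), and SGK1, a kinase induced by glucocorticoids, by 0.94 (adjusted p = 0.025). On the ERCC scale these differences were -1.0, 0.94, -0.82 and 0.71 for NR1D1, BHLHE41, DDB1 and SGK1, and none of them passed.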

How the results depend on the processing

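No paired analysis was possible because the labels number the libraries from 1 to 12 without a number shared between groups, and the term for the highest-numbered library marks a position, not a pair. In WT cells the 3 members lower in 0.1% serum became 1 under TMM on the genes, 0 with the 2 lowest-numbered libraries summed and 6 without the highest-numbered libraries, and 0 to 4 on leaving out 1 library, and the 0 higher became 3 under TMM. In ΔLEO1 cells the 5 lower became 2 under TMM or with no filter, 3 with a term for the highest-numbered library, 0 with sums and 9 without the highest-numbered libraries, and 0 to 9 on leaving out 1 library, and the 0 higher became 2 under TMM. On the gene scale, without the highest-numbered libraries, the lower members went from 1 to 3 in WT and from 2 to 6 in ΔLEO1 cells, with 1 to 4 in ΔLEO1 cells on leaving out 1 library. Between the genotypes the 0 higher members on the ERCC scale became 2 in 10% serum and 1 in 0.1% serum under TMM, and 0 to 1 and 0 to 2 on leaving out 1 library. On the gene scale, without the highest-numbered libraries, there were 1 lower and 6 higher in 10% serum and 1 lower and 3 higher in 0.1% serum, and on leaving out 1 library 1 to 3 were higher in 10% serum and 0 to 1 lower in 0.1% serum. For the interaction the 0 lower members became 1 under TMM and, on the gene scale, 3 without the highest-numbered libraries and 0 to 1 on leaving out 1 library. Among the values that passed the test under TMM, those in 0.1% serum reversed for PER2 (0.90), CRY2 (0.72) and NR1D1 (0.42) in WT cells and for CRY2 (0.62) in ΔLEO1 cells, and PER3 in ΔLEO1 cells reversed on the gene scale without the highest-numbered libraries (-0.25). The BMAL1 difference taken against NR1D1, NR1D2, DBP, PER2 and PER3 was -0.85 in WT and -1.63 in ΔLEO1 cells in 10% serum, beside -0.40 and -1.29. The cause of these moves was not tested, but for the scale by construction and for sums, which leave 2 libraries a group.

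Over all genes the 3578 lower in WT cells in 0.1% serum became 2127 under TMM, 2493 with no filter, 335 with sums and 8347 without the highest-numbered libraries, and the 110 higher became 2047, 125, 47 and 158. DESeq2 gave 5755 lower, and leaving out 1 library gave 745 to 8107. The 4820 lower in ΔLEO1 cells became 1604, 2530, 118 and 12088, and the 105 higher became 2055, 99, 33 and 90. A term for the highest-numbered library gave 2082 lower, and leaving out 1 library gave 405 to 11565. Calls of members at 113 counts are less precise than those at 4091.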
